A study of Mus musculus with 7 samples.

Results

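Enteroendocrine cells are scattered hormone-secreting cells of the gut epithelium, and 10 genes that define them were followed here through cells sorted from fetal mouse bowel. The 10 were taken by symbol from the 19938 genes on the array: 7 peptide hormone genes (Gip, Gcg, Cck, Sct, Ghrl, Nts and Pyy), the serotonin enzyme gene Tph1 and the fate factor genes Neurog3 and Pax4. All 10 were measured, each by 1 probe set that the platform annotation pairs with that gene only. The study sorted whole bowel of embryonic day 17.5 mice by fluorescence. All animals carried Wnt1-Cre, a recombinase transgene active in the neural crest, and R26R-EYFP, a reporter that makes yellow fluorescent protein once Cre has acted. The YFP-positive samples (4 arrays) are labelled as enteric neural crest-derived cells (ENCDC), which form the neurons and glia of the bowel wall, and the YFP-negative samples (3 arrays) as all other bowel cells. There was no treatment and no animal without the transgenes. The labels do not say whether samples came from separate embryos or litters, so the spread between arrays may be partly technical.

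Cells become enteroendocrine when a progenitor of the gut crypt or fetal epithelium switches on Neurog3, a basic helix-loop-helix transcription factor without which the lineage does not form. Later factors such as Pax4, Neurod1 and Rfx6 steer the cells towards particular hormones. The hormones are made as larger precursors, cut by prohormone convertases, packed in dense-core granules and released towards blood vessels and nerve endings in response to food. The gut epithelium comes from the endoderm and not from the neural crest, while several genes used by endocrine cells, among them those for granule proteins, are used by neurons as well.

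The 250 bases upstream of the start of 5 members, from RefSeq's GRCm38.p6 annotation, are shown because they belong to the fate factor itself, to the 3 related hormone genes of the glucagon and secretin family, and to Cck, whose upstream sequence holds the same 6-letter word as Gcg. Capitals mark every match to CANNTG, the E-box, which is the word read by helix-loop-helix factors such as those encoded by Neurog3 and Neurod1. The word reads the same on both strands.

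Neurog3 (chr10:62132840-62133089, plus strand): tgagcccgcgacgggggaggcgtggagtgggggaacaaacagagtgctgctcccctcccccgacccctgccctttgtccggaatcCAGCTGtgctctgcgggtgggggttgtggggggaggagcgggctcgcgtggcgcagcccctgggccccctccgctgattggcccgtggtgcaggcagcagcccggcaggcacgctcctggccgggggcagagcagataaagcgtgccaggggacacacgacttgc
Gip (chr11:96024295-96024544, plus strand): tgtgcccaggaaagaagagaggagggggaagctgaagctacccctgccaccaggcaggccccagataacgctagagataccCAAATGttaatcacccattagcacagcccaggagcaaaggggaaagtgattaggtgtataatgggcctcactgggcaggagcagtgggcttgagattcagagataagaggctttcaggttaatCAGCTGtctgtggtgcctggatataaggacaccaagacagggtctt
Gcg (chr2:62483654-62483903, minus strand): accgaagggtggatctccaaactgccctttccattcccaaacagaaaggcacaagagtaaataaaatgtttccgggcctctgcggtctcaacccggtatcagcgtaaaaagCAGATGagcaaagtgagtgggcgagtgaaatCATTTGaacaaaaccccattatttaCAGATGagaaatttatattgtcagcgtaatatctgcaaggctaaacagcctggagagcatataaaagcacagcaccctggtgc
Sct (chr7:141279134-141279383, minus strand): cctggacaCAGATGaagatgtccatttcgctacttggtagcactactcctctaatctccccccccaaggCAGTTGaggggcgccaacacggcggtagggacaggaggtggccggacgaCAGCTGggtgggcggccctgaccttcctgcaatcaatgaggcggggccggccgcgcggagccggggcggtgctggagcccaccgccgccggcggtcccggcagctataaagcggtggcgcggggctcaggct
Cck (chr9:121495695-121495944, minus strand): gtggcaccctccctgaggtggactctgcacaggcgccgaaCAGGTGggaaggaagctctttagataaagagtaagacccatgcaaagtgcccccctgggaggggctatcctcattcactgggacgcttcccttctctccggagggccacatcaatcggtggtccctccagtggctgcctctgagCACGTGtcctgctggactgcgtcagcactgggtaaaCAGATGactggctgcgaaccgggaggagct

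An upstream sequence was held for 9 of the 10 members. For the 6 of them with 1 start (these 5 and Nts), all 6 sequences contained CANNTG. The word is common: 66.2% of the 32536 upstream windows of the same length in the table contained it. The form CAGATG, searched on both strands and always counted among the CANNTG matches, was present in Gcg (2 matches), Cck (1) and Sct (1), and in 14.4% of all windows. Gcg had these matches 139 and 83 bases before the start. GATAA, the core of sites read by GATA factors, was present on either strand in Gip (2 matches), Cck, Nts and Neurog3 (1 each), against 22.5% of all windows. TATAA, searched on the strand of the gene only, was present in Gip, Gcg and Sct, against 15.9%, with the last match 24 to 28 bases before the start. These matches describe letters only.

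Neural genes marked the YFP-positive arrays, and the listed pan-epithelial and enterocyte genes had no called difference between the groups. All 11 measured pan-neuronal genes and all 5 glial genes were higher on the YFP-positive arrays, and all 7 mesenchymal and 7 myeloid genes were lower (limma, adjusted p under 0.05). At this threshold 9.11% of all 19938 genes were called lower and 8.39% called higher. Of 22 pan-epithelial and enterocyte genes 0 passed in either direction (17.5% of all genes did), also 0 with array weights in the limma fit, and 3 had an unadjusted p under 0.05. Their log2 fold changes ran from -0.54 to 0.87 with a median of -0.03. The epithelial adhesion gene Epcam averaged 8.11 ± 0.43 (SD, n = 4) on the YFP-positive arrays and 7.96 ± 0.11 (SD, n = 3) on the others, as log2 levels. Log2 levels here are RMA values, in which a step of 1 is a doubling of signal. In bulk samples, fewer cells of a type and less RNA per cell cannot be told apart.

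All 10 enteroendocrine genes had a lower mean in YFP-positive cells, and 2 of 10 passed the test, Neurog3 and Gip. Over all genes 47.0% had a negative log2 fold change. Their median difference (log2 fold change) was -1.19, beside 0.01 over all genes. Limma called 2 of 10 lower, beside 9.11% of all genes, and 0 of 10 higher, beside 8.39%. At an unadjusted p under 0.05, 5 were lower and 0 higher, but no share of all genes was computed for that level. The members were chosen with results of these arrays known, so these counts describe the 10 genes and do not set them apart from others. No overlap between the groups was seen for 3 members, Gip, Ghrl and Neurog3, with every YFP-positive array below every YFP-negative array, a pattern shown by 13.5% of all genes.

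**Figure D1:**
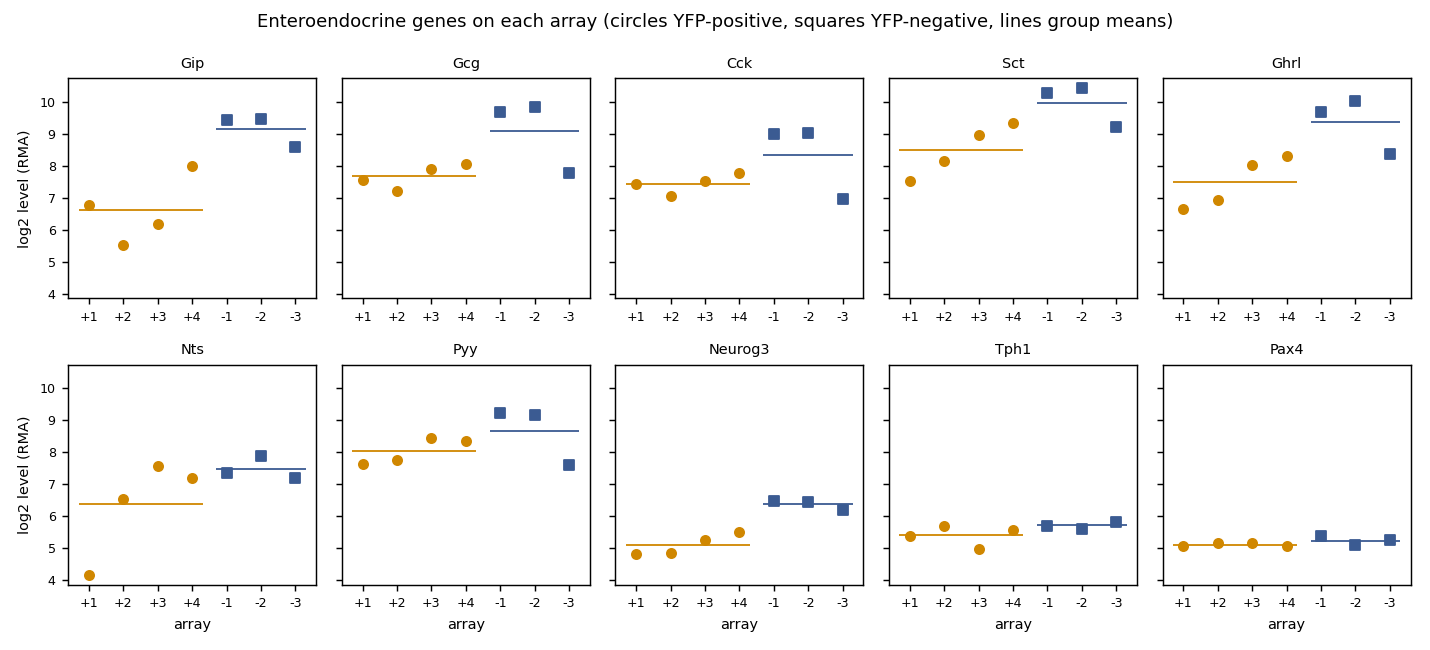
Log2 RMA level (y axis) of the 10 enteroendocrine genes on each array (x axis: +1 to +4 are YFP-positive, -1 to -3 YFP-negative); circles and squares are single arrays and lines are group means. Neurog3, Gip and Ghrl show no overlap between the groups, YFP-negative array 3 lies below YFP-negative arrays 1 and 2 for 8 genes, and Tph1 and Pax4 stay within narrow ranges.

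Neurog3, the fate factor of the lineage, had log2 levels of 4.80, 4.84, 5.25 and 5.49 on YFP-positive arrays 1 to 4 and of 6.48, 6.44 and 6.19 on YFP-negative arrays 1 to 3. Each YFP-negative array was above all YFP-positive ones. The YFP-positive levels were below the array medians (5.87 to 5.92), where background can compress a fold change. Its mean was 2.42-fold lower on the YFP-positive arrays (log2 fold change -1.28 ± 0.18 SE, 95% interval -1.71 to -0.84, limma adjusted p = 0.00349). It was called under each of the 16 alternatives run, with a limma adjusted p of 6.98e-04 to 0.0230. The SD was 0.33 among the 4 YFP-positive and 0.16 among the 3 YFP-negative arrays.

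Pax4, a homeobox factor that acts after Neurog3, showed no such difference. Its log2 level was 5.06, 5.14, 5.14 and 5.06 on the YFP-positive and 5.37, 5.07 and 5.23 on the YFP-negative arrays. The groups overlapped and the 7 arrays spanned 0.31 in all (log2 fold change -0.12 ± 0.08 SE, 95% interval -0.31 to 0.06, limma adjusted p = 0.360). The files carry no detection calls, so a signal with such a narrow range cannot be told from background.

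Gip encodes the glucose-dependent insulinotropic peptide of proximal K cells, an incretin that raises insulin release after a meal. Its log2 levels were 6.76, 5.50, 6.16 and 7.98 on YFP-positive arrays 1 to 4 and 9.43, 9.45 and 8.59 on YFP-negative arrays 1 to 3. The groups did not overlap, and the YFP-positive arrays differed among themselves by up to 2.48. Gip was 5.87-fold lower on the YFP-positive arrays, the largest difference of the 10 genes (log2 fold change -2.55 ± 0.56 SE, 95% interval -3.89 to -1.22, limma adjusted p = 0.0210). The call was lost without YFP-negative array 1 (limma adjusted p = 0.0810) or 2 (0.0877) and without YFP-positive array 1 (0.0570) or 3 (0.0642), while the log2 fold change stayed between -3.02 and -2.19 in the alternatives run.

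Gcg and Sct belong to the same peptide family as Gip. Gcg encodes proglucagon, which L cells cut into the glucagon-like peptides. It stood at 7.55, 7.22, 7.88 and 8.05 on the YFP-positive arrays and at 9.67, 9.84 and 7.78 on the YFP-negative arrays. YFP-negative arrays 1 and 2 were high and array 3 lay inside the YFP-positive range, so that the difference was not called (log2 fold change -1.42 ± 0.50 SE, 95% interval -2.61 to -0.23, limma adjusted p = 0.106). Without YFP-negative array 3 it was -2.08 ± 0.24 SE (limma adjusted p = 0.00371). Without YFP-negative array 1 or 2 it was -1.13 or -1.04 and not called (limma adjusted p = 0.285 and 0.301).

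Sct encodes secretin, the hormone that makes the pancreas release bicarbonate. Its log2 levels were 7.52, 8.14, 8.95 and 9.34 on the YFP-positive and 10.27, 10.41 and 9.19 on the YFP-negative arrays. YFP-positive array 4 was above YFP-negative array 3, and otherwise the groups were apart. The log2 fold change of -1.47 ± 0.49 SE (95% interval -2.64 to -0.30) was not called (limma adjusted p = 0.0906), and no removal of 1 array made it pass.

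Ghrl encodes ghrelin, the hunger hormone of X/A-like cells. It stood at 6.65, 6.92, 8.03 and 8.29 on YFP-positive arrays 1 to 4 and at 9.67, 10.03 and 8.36 on YFP-negative arrays 1 to 3. The groups did not overlap, but only 0.07 separated YFP-positive array 4 from YFP-negative array 3. The mean was 3.68-fold lower on the YFP-positive arrays and just missed the threshold (log2 fold change -1.88 ± 0.54 SE, 95% interval -3.16 to -0.60, limma adjusted p = 0.0564). It passed in 6 of 16 alternatives, with a limma adjusted p of 0.0238 to 0.189 over all 16, and among them without YFP-negative array 3 (0.0293).

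Cck and Pyy, hormones that limit food intake and slow the stomach or bowel, followed Gcg in their array pattern. Cck had log2 levels of 7.42, 7.04, 7.52 and 7.76 on the YFP-positive and 8.99, 9.02 and 6.97 on the YFP-negative arrays. YFP-negative array 3 was the lowest of all 7 arrays, and the other 2 YFP-negative arrays were the highest. Pyy, the gene of peptide YY of L cells, had 7.61, 7.74, 8.45 and 8.34 on the YFP-positive and 9.20, 9.17 and 7.59 on the YFP-negative arrays, again with YFP-negative array 3 lowest. Neither was called over the 7 arrays (Cck -0.89 ± 0.51 SE, 95% interval -2.09 to 0.31, limma adjusted p = 0.300; Pyy -0.62 ± 0.43 SE, 95% interval -1.64 to 0.41, limma adjusted p = 0.402). Without YFP-negative array 3 both were called, Cck at -1.57 (limma adjusted p = 0.00469) and Pyy at -1.15 (limma adjusted p = 0.0370). Without YFP-negative array 1 or 2 neither was called. Cck was then -0.56 or -0.54 (limma adjusted p = 0.591 and 0.609) and Pyy -0.34 or -0.36 (limma adjusted p = 0.716 and 0.715).

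Nts encodes neurotensin, a peptide of N cells of the distal small bowel that is also made by neurons. Its log2 levels were 4.16, 6.53, 7.55 and 7.20 on the YFP-positive and 7.35, 7.87 and 7.20 on the YFP-negative arrays. YFP-positive array 1 stood 2.37 below the next array, and YFP-positive arrays 3 and 4 reached the YFP-negative range. The difference was not called (log2 fold change -1.11 ± 0.78 SE, 95% interval -2.95 to 0.73, limma adjusted p = 0.401), and without YFP-positive array 1 it was -0.38 (limma adjusted p = 0.491).

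Tph1 encodes the enzyme that starts serotonin synthesis in enterochromaffin cells. It stood at 5.38, 5.67, 4.97 and 5.56 on the YFP-positive and 5.70, 5.60 and 5.82 on the YFP-negative arrays. The groups overlapped, and the values spanned 0.85 over the 7 arrays (log2 fold change -0.31 ± 0.17 SE, 95% interval -0.70 to 0.09, limma adjusted p = 0.276). All 7 levels were below the array medians (5.87 to 5.92), where background can compress a difference. Tph1 was not called in any of the 16 alternatives, nor was Pax4 or Nts.

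**Figure D2:**
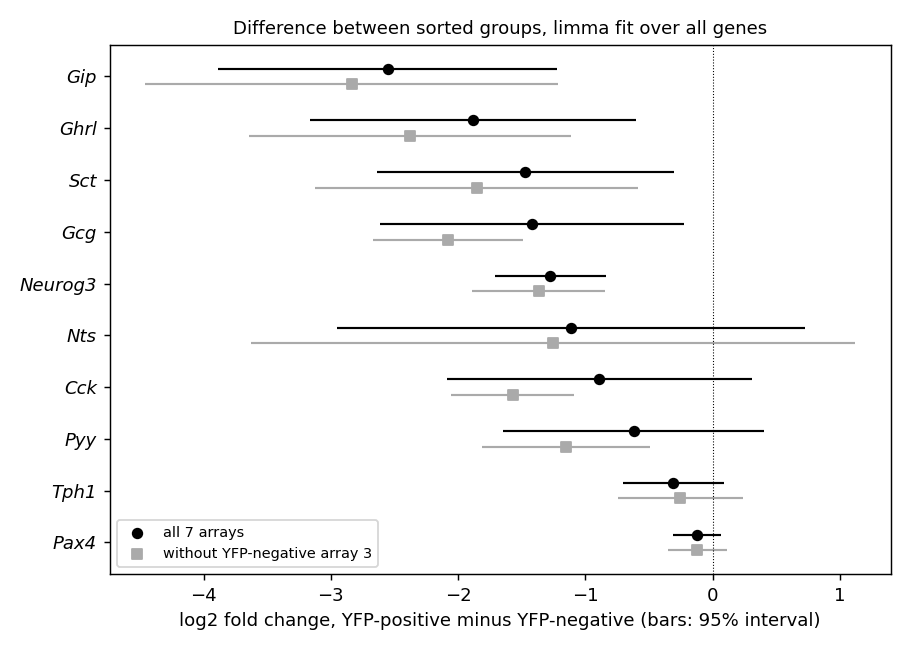
Log2 fold change of each gene, YFP-positive minus YFP-negative (x axis), with its 95% interval from the limma fit, over all 7 arrays (circles) and without YFP-negative array 3 (squares). Without that array 6 genes are called lower in place of 2, and the intervals of Gcg, Cck and Pyy move away from 0 while Tph1 and Pax4 hardly move. The fits without YFP-negative array 1 or 2, which are not drawn, each called 1 gene.

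The number of members called changed with the arrays kept, and it was highest without YFP-negative array 3. Without it, Gip, Gcg, Cck, Ghrl, Pyy and Neurog3 were lower in YFP-positive cells, 6 of 10 beside 9.48% of all genes in that fit. Without YFP-negative array 1, YFP-negative array 2, YFP-positive array 1 or YFP-positive array 3 only Neurog3 was called. With all 7 arrays and array weights, 5 members were called lower. YFP-negative array 3 was also the array with the highest erythroid level: the mean of 3 red cell genes was 5.90, 7.92 and 10.44 on YFP-negative arrays 1 to 3 and 5.23 to 5.58 on the YFP-positive arrays. Its mesenchymal mean was 9.56 against 10.24 and 10.27. The part of these differences in cell content in the hormone result was not tested.

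The 10 genes also varied within the YFP-positive group, as did the genes of the epithelium and of several other cell types. Their mean level was 6.29, 6.47, 6.99 and 7.31 on YFP-positive arrays 1 to 4, while the mean of the 22 epithelial genes was 7.48, 7.76, 8.34 and 8.54. Arrays 3 and 4 were both above arrays 1 and 2 for 7 of the 10 enteroendocrine and 21 of the 22 epithelial genes, against 17.0% of all genes. The 3 exceptions among the enteroendocrine genes were Gip, Tph1 and Pax4. The same order held for all 7 goblet, all 7 mesenchymal and all 6 smooth muscle genes and for 5 of 7 myeloid genes. It held for 1 of 9 exocrine pancreas genes. The pan-neuronal mean ran the other way, at 9.48, 9.44, 9.11 and 8.88.

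Relative to the epithelial mean of the same array, the mean of the 10 enteroendocrine genes lay in a narrow range on the YFP-positive arrays, while some single members did not. The difference of the 2 means was -1.18, -1.28, -1.35 and -1.23 on YFP-positive arrays 1 to 4. On YFP-negative arrays 1 to 3 it was 0.27, 0.32 and -0.84. Each YFP-negative array was above all YFP-positive ones, with array 3 nearest to them. Among the members, the same difference spanned 2.52 over the YFP-positive arrays for Nts, 1.69 for Gip, 1.29 for Tph1 and 1.06 for Pax4, and 0.33 to 0.76 for the other 6. The levels of Pax4 and Tph1 themselves spanned only 0.08 and 0.70 on these arrays. Subtracting the epithelial mean, which ran from 7.48 to 8.54, widened their spans. With the epithelial mean as a further term in the fit, 4 members were called lower: Neurog3, Gip, Ghrl (-1.90, limma adjusted p = 0.0318) and Sct (-1.49, limma adjusted p = 0.0349).

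**Figure D3:**
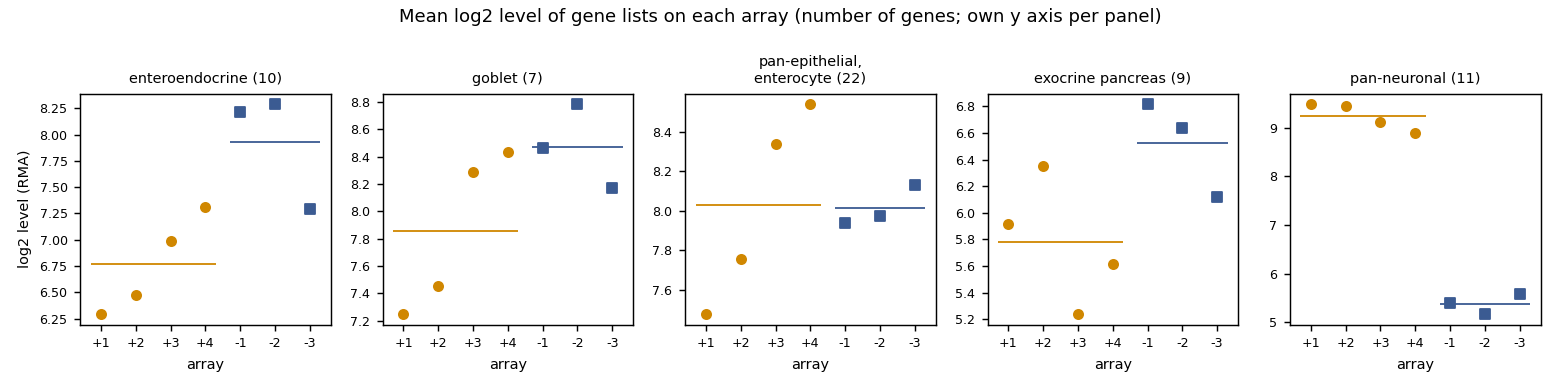
Mean log2 level of 5 gene lists (y axis, with its own scale in each panel) on each array (x axis: +1 to +4 YFP-positive, -1 to -3 YFP-negative); points are arrays and lines group means. The enteroendocrine and goblet means are higher on +3 and +4 than on +1 and +2 and lower on -3 than on -1 and -2, the pan-epithelial and enterocyte mean reaches its highest value on a YFP-positive array, and the exocrine pancreas mean is lowest on +3.

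Goblet cells, the mucus-making cells of the same epithelium, shared the array pattern of most hormones, and so did mesenchyme and smooth muscle. All 7 measured goblet genes were higher on YFP-positive arrays 3 and 4 than on 1 and 2 and higher on YFP-negative arrays 1 and 2 than on 3. So were 7 of the 10 enteroendocrine genes, all 7 mesenchymal genes, 5 of 6 smooth muscle genes, 4 of 22 epithelial genes and 5.38% of all genes. This pattern was noticed in the values and is given as a description. The goblet mean ranged from 7.25 to 8.43 in YFP-positive and from 8.17 to 8.78 in YFP-negative cells, and limma called 0 of 7 goblet genes (1 had an unadjusted p under 0.05, and 0 passed with array weights), their median being -0.61 (log2 fold change).

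Genes of the pancreas were compared as well, since its fetal endocrine cells also make Gcg, Ghrl and Pyy. The mean of 9 exocrine pancreas genes was 5.91, 6.35, 5.24 and 5.61 on the YFP-positive and 6.82, 6.64 and 6.12 on the YFP-negative arrays. Ctrb1, a digestive protease precursor gene, stood at 8.38, 9.36, 6.82 and 7.77 against 10.09, 10.22 and 8.59. YFP-negative array 3 was the lowest of its group, as for the hormones, whereas YFP-positive arrays 1 and 2 were above 3 and 4, the reverse of 7 of the 10 enteroendocrine genes. All 9 exocrine genes had a negative log2 fold change and limma called 0 (2 had an unadjusted p under 0.05, and 1 passed with array weights). The insulin gene Ins2 ranged from 5.80 to 6.81 in YFP-positive and from 5.93 to 6.64 in YFP-negative cells. The 7 beta cell genes had means of 4.92 to 5.15 and 5.06 to 5.21, and the 9 stomach genes of 4.34 to 4.49 and 4.36 to 4.47. The part of pancreatic cells in the hormone differences was not tested.

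Other factors of the lineage went both ways. Of 13 measured transcription factors, 4 were called higher and 2 lower, beside 8.39% and 9.11% of all genes (median -0.16, log2). The lower ones were Rfx6 (-0.82 ± 0.21 SE, limma adjusted p = 0.0374), which acts below Neurog3 in gut and pancreas, and Foxa1 (-0.38 ± 0.10 SE, limma adjusted p = 0.0395), an endodermal forkhead factor. Rfx6 had log2 levels of 4.06, 4.50, 4.33 and 4.85 on the YFP-positive and 5.44, 5.42 and 4.91 on the YFP-negative arrays, with no overlap. All were below the array medians. Both calls were fragile: that of Rfx6 was lost in 5 of the 7 fits that left out 1 array and that of Foxa1 in 6. Neurod1, a direct target of Neurog3, had a log2 fold change of -0.82 ± 0.26 SE (limma adjusted p = 0.0783) and passed without YFP-negative array 3 (limma adjusted p = 0.0273). It was not called in 6 of the 7 fits that left out 1 array (limma adjusted p up to 0.241). The higher ones were St18 (1.98 ± 0.15 SE), Insm1 (1.52 ± 0.18 SE), Etv1 (0.87 ± 0.10 SE) and Rfx3 (0.84 ± 0.11 SE), with limma adjusted p-values of 2.40e-04 to 0.00214. Insm1 and Etv1 are also factors of developing neurons.

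**Figure D4:**
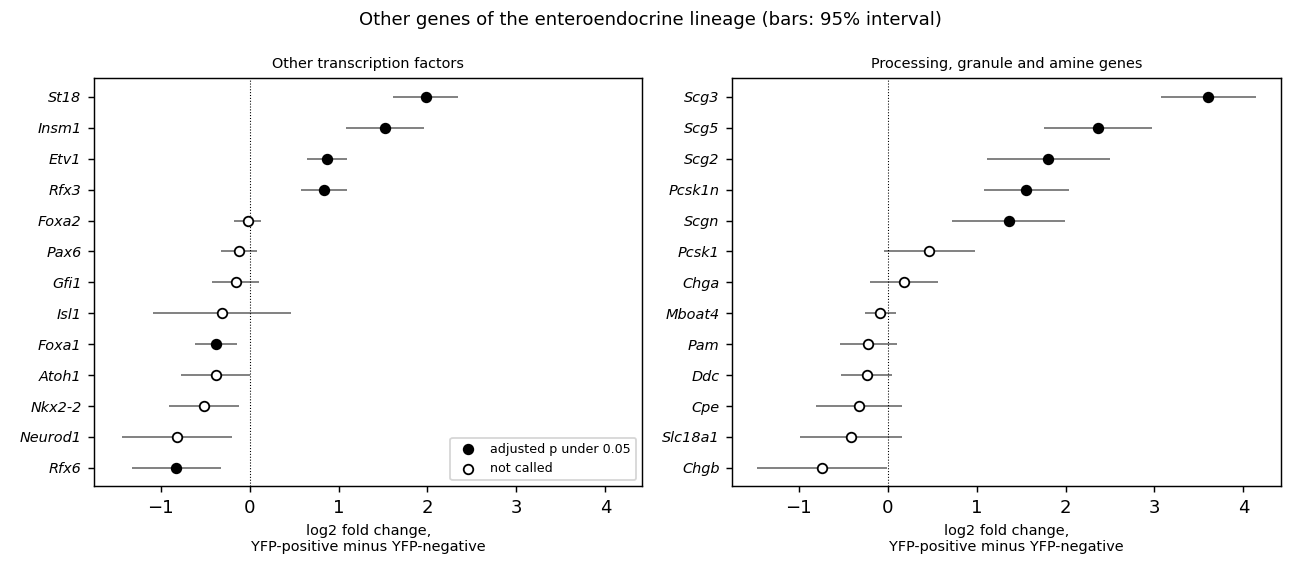
Log2 fold change, YFP-positive minus YFP-negative (x axis), of 13 other transcription factors and 13 processing, granule and amine genes of endocrine cells, with 95% intervals; filled points have a limma adjusted p under 0.05. The granule genes Scg3, Scg5 and Scg2 lie to the right. The granule gene Chgb, the amine genes Ddc and Slc18a1 and the ghrelin-modifying gene Mboat4 lie left of 0 and were not called.

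Called genes of hormone processing and granules were all higher in YFP-positive cells. Of 13 measured, 5 passed as higher and 0 as lower, beside 8.39% and 9.11% of all genes, and 6 of the 13 had a negative log2 fold change (median 0.19, log2). Scg3 (3.61 ± 0.22 SE), Scg5 (2.36 ± 0.26 SE) and Scg2 (1.81 ± 0.29 SE) encode granule proteins, Pcsk1n (1.56 ± 0.20 SE) an inhibitor of a prohormone convertase, and these are also active in neurons. Chgb stood at 8.74, 8.27, 8.67 and 9.00 on the YFP-positive and 9.68, 9.87 and 8.66 on the YFP-negative arrays, with YFP-negative array 3 lowest of its group (log2 fold change -0.74 ± 0.31 SE, limma adjusted p = 0.164). It passed without YFP-negative array 3 (-1.11, limma adjusted p = 0.0171). Without YFP-negative array 1 or 2 it was -0.60 or -0.50 and not called (limma adjusted p = 0.366 and 0.407). Chga had a log2 fold change of 0.19 ± 0.16 SE. Mboat4, which encodes the enzyme that acylates ghrelin, had one of -0.08 ± 0.07 SE, and Slc18a1, the amine transporter gene of enterochromaffin cells, one of -0.41 ± 0.24 SE, and none of these 3 was called.

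Of 9 further hormone genes, 1 was called higher and 0 lower, beside 8.39% and 9.11% of all genes. Sst, the gene of somatostatin from D cells and some enteric neurons, had log2 levels of 7.29, 5.43, 8.33 and 7.51 on the YFP-positive and 9.35, 9.35 and 8.47 on the YFP-negative arrays. The groups did not overlap, and the log2 fold change of -1.91 ± 0.65 SE missed the threshold (limma adjusted p = 0.0916). Tac1, the substance P gene of enterochromaffin cells and enteric neurons, was higher (1.59 ± 0.42 SE, limma adjusted p = 0.0410), a call that was lost without YFP-negative array 1 or without any 1 of the 4 YFP-positive arrays (limma adjusted p up to 0.110). Gast, Insl5, Ppy and Ucn3 had log2 fold changes between -0.08 and -0.01.

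Of 14 measured receptors for the member hormones 1 was called, beside 17.5% of all genes in either direction. It was the neurotensin receptor gene Ntsr1, which was lower in YFP-positive cells (-0.60 ± 0.14 SE, limma adjusted p = 0.0294). It stood at 4.84, 5.04, 5.07 and 5.08 on the YFP-positive and 5.82, 5.75 and 5.26 on the YFP-negative arrays, all below the array medians. Its call was lost in 6 of the 7 fits without 1 array. The other 13 did not pass, and the median over the 14 was 0.03. Both group means of each of the 14 were below the array medians (5.87 to 5.92), where background can compress a difference. A median near 0 therefore does not show equal receptor levels. Of 14 measured nutrient sensors that trigger hormone release 1 was called, against the same 17.5%. Ffar3, a receptor for short-chain fatty acids that is also found on autonomic neurons, was higher (0.78 ± 0.10 SE, limma adjusted p = 0.00189), with 6.19, 6.19, 6.45 and 6.07 against 5.53, 5.36 and 5.42. The related Ffar2 had a log2 fold change of -0.68 ± 0.19 SE (limma adjusted p = 0.0505).

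Outside the 10 members, the genes whose levels over the 7 arrays were most like the members' mean were not hormone genes. The members were left out of this search, so their own hormone genes could not appear in it. Among 9956 other genes above the median level, the 10 with the highest Pearson correlation were Nhlrc3, Fastk, Tnfrsf11b, Chrm2, Myl7, Lmod1, Col4a1, Srpx, Alg1 and Loxl1, with r from 0.985 to 0.994. The 7 points share 2 groups and the differences in cell content given above. Of these 10 genes, 4 were called lower in YFP-positive cells. Chrm2, a muscarinic receptor gene of smooth muscle, stood at 6.72, 6.73, 7.11 and 7.31 on the YFP-positive and 8.01, 7.86 and 7.20 on the YFP-negative arrays, again with YFP-negative array 3 lowest of its group.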

How the data were processed

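RMA levels on a log2 scale, 1 value per probe set of an Affymetrix mouse array, were deposited by the authors. The submitters' processing notes name RMA and Affymetrix Expression Console, without versions. RMA subtracts background, gives arrays a common distribution and summarises probes, which can compress differences. The labels name a whole-transcriptome amplification kit for small RNA amounts. Detection calls were not used here.

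Of 35556 probe sets, the 21789 paired with 1 gene symbol were kept, with the highest mean over the 7 arrays chosen per gene. Groups were compared with lmFit and eBayes in limma 3.58.1 (R 4.3.3), fitted on all 19938 genes, with Benjamini-Hochberg adjustment and a threshold of 0.05. Array medians were 5.87 to 5.92, and the number of arrays limits precision. Tested on simulated data for 19938 genes, the fit found 56% of the genes changed 1.5-fold and 72% of those changed 2-fold, and made 11 false calls. Motifs were counted with Python 3.11.15 in RefSeq's GRCm38.p6 promoter table.

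The members and lists were chosen with earlier results of these data known. Named genes are the 10 members, up to 4 called genes of each list, 8 measured of 9 genes named whatever their values, and the 10 genes most alike in level. Other genes with values were named after these were seen. Some listed genes are not reported here. The alternatives were trend and robust options, median centring, quantile normalization, leaving out dim genes, the mean of all probe sets, array weights, a replicate block, each array left out, YFP-positive arrays 3 and 4 left out, and an epithelial covariate.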

Additional observations from a re-analysis of the deposited data

How the results depend on the processing

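The direction of all 10 members was the same in each of the 16 alternatives, and 0 were called higher in any. The count of members called lower, 2 over all arrays, was 5 with array weights, 4 with the epithelial mean as a covariate, and 1 to 6 when 1 array was left out; the cause was not tested. Same-numbered samples of the groups correlated at -0.09 to 0.04 in their deviations from the group means, and other pairs at -0.16 to 0.27. With so few arrays these values cannot decide whether the numbers pair the samples, and the labels do not say. The main fit used no pairs. With the replicate number as a block the members called lower were 2 and all genes called 2509. Over all genes 3489 were called, and 2368 to 3337 without 1 array. Further hormone genes called were 1, and 0 to 1 without 1 array. Receptors called were 1, but 3 with the epithelial covariate, 0 with the replicate block and 0 to 1 without 1 array. Nutrient sensors called were 1, but 3 with the covariate or with the dimmest genes left out, 2 with centred arrays, quantile normalization, trend and robust options, the mean of all probe sets or the replicate block, and 1 to 2 without 1 array. Epithelial genes called were 0, but 1 with their own mean as covariate and 3 without YFP-positive arrays 3 and 4, the arrays where these genes were highest in the group. No gap of 1 YFP-positive array from the other 3 passed Dixon's 95% critical value among 32 genes searched. Dim genes are limited by background, which compresses their differences.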

Other observations

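Tuft cells are chemosensory cells of the same epithelium, and 2 of 6 measured tuft genes were called, in opposite directions. Trpm5, their taste-type cation channel gene, was lower on the YFP-positive arrays, by -1.01 ± 0.13 (log2, SE; limma adjusted p = 0.00187), with 4.92, 4.81, 5.17 and 5.24 on the YFP-positive and 6.21, 6.02 and 5.92 on the YFP-negative arrays. Dclk1, a kinase gene of tuft cells and of neurons, was higher (2.14 ± 0.12 SE). Guca2a, the guanylin gene, is made by several epithelial cell types and had a log2 fold change of -0.61 ± 0.36 SE (limma adjusted p = 0.310).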
